A study of Mus musculus with 27 samples.

Results

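The genes described here are 36 genes of adult skeletal muscle, followed in tumors that grew under the skin of mice, in subcutaneous tissue and in cell cultures. They were taken by symbol from the probe annotation, each through a probe set listed with 1 gene, and they are 36 of the 19937 genes measured. All 36 had a value on every array. By function, 8 take part in calcium release, 8 belong to the thick filament, 8 to the thin filament, 7 to the Z-disc and its scaffold and 5 to energy and oxygen supply.

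The study profiled mouse neural stem cell lines, the tumors they form and the tissues they were set against, with 1 Affymetrix array for each of 27 samples. The groups were 12 tumors, 3 each from line 1 (WT), line 31 (p53 mutant), line 59 (p53 mutant) and line 123 (WT); 3 pieces of subcutaneous tissue (SubQ, WT); 10 immortalized neural stem cell lines, of which lines 3, 28, 31, 59, 95 and 116 were p53 mutant and lines 119, 120, 123 and 331 WT; and 2 normal neural stem cell cultures (NSCs, WT). Line 1 was profiled here as tumors alone, and each cultured line had 1 array. All samples, cultures included, carry the host strain label CB17/ICR-Prkdcscid/IcrCrl, a severe combined immunodeficient (SCID) mouse without mature T and B cells. The labels call the arrays of a group biological replicates and state nothing further on separate animals or cultures, so a p-value here weighs a difference against sample-to-sample spread that may be technical. The study set tumors against SubQ tissue and immortalized lines against NSCs. The muscle genes are described here as a measure of muscle RNA in each piece of tissue, with the cultures as baseline.

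Skeletal muscle fibres contract when calcium leaves the sarcoplasmic reticulum and lets myosin of the thick filament pull on actin of the thin filament. Titin and the Z-disc hold the filaments in register, and creatine kinase and glycogen breakdown supply the energy. Fast and slow fibres use different versions of myosin, troponin and calcium pump proteins. In mice a thin sheet of skeletal muscle, the panniculus carnosus, lies in the subcutaneous layer of most of the body skin. In bulk tissue, fewer muscle fibres and less muscle RNA per fibre cannot be told apart.

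Muscle genes are switched on by factors that bind short DNA motifs near their starts. MyoD family proteins bind E-boxes, MEF2 proteins an AT-rich box, serum response factor the CArG box and TEAD proteins the motif CATTCC. The windows of 4 members are shown because these genes stand for the patterns described below: Myh4 is a myosin of fast fibres, Acta1 is skeletal actin, Ttn had the widest spread between tumors and Ppp1r3a was lower in tumors under each scaling tried. Each window runs from 250 bases before to 50 bases after the gene start, 5′ to 3′ on the gene's strand, from RefSeq on build GRCm38.p6. Myh4 lies at chr11:67237562-67237861 (plus strand), Acta1 at chr8:123894726-123895025 (minus strand), Ttn at chr2:76982498-76982797 (minus strand) and Ppp1r3a at chr6:14755225-14755524 (minus strand). Capitals mark the E-box CAGCTG on either strand, as well as the TEAD motif, the MEF2 box, the CArG box and the TATA motif spelled TATAAA.
Myh4: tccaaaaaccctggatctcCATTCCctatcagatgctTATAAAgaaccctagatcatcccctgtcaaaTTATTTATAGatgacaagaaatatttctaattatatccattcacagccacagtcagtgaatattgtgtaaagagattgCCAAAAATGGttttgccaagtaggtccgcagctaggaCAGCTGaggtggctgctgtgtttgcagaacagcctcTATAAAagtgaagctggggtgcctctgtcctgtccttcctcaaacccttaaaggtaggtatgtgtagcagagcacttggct
Acta1: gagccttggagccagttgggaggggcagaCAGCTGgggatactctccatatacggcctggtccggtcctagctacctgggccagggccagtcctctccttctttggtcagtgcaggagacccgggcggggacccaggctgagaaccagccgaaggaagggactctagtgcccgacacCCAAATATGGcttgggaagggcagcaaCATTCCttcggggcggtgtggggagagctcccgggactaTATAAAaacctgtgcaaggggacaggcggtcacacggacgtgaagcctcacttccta
Ttn: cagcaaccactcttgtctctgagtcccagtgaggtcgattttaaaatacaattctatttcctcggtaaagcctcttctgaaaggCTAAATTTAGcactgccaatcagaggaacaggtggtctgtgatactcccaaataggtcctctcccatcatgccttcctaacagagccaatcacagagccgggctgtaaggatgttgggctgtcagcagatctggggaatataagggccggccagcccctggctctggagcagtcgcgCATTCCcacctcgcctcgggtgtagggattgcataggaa
Ppp1r3a: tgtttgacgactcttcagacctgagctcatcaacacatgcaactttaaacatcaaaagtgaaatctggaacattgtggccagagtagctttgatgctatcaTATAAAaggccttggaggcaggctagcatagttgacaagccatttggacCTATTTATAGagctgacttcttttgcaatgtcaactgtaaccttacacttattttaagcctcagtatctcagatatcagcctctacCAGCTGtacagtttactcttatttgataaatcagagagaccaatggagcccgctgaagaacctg
In Myh4 and in Ppp1r3a, 1 TATAAA on the reverse strand overlaps the MEF2 box. Of 35 windows that matched 28 members by symbol, 51.4% held CAGCTG, against 16.3% of all 32851 windows. CATTCC was present in 28.6% of the members' windows and 14.7% of all windows. The MEF2 box was present in 17.1% against 3.19%, the CArG box in 11.4% against 1.63% and TATAAA in 20.0% against 13.6%. A match is a string of letters in the window and shows no binding. No window was used for Trdn, Neb, Tnnt3, Jph1, Tnni2, Actn3, Myot and Tcap.

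In SubQ tissue the 36 members stood high among all genes by their median, and in cultures they stood low. The percentile of a gene within its own array, from 0 for the dimmest to 100 for the brightest, needs no scale shared between arrays. The members' median percentile was 35.9 to 75.3 in the 12 tumors and 83.4, 93.6 and 87.4 in SubQ pieces 1, 2 and 3. It was 32.5 to 36.8 in the 10 immortalized lines and 34.0 and 36.3 in the NSCs. Tumors thus ran from the level of the cultures upward, and by this measure none reached a SubQ piece. By the mean of the members' log2 values, 1 tumor (line 123, replicate 2, at 7.06) lay above the lowest SubQ piece (6.84). Single members did not all follow. Tnnc1 stood at 26.9, 16.0 and 23.7 and Myl1 at 6.2, 83.1 and 18.6 in SubQ pieces 1, 2 and 3. Of 55 muscle genes outside the 36, the median percentile was 58.3 to 63.2 in SubQ tissue and 33.7 to 41.2 in tumors. For 8 heart genes it was 55.5 to 68.0 in SubQ tissue and 30.7 to 40.6 in tumors. The SubQ pieces were mixed tissue: the median percentile of 9 epidermal genes was 94.5 to 97.5 and that of 9 fat cell genes 83.0 to 85.2. Of 6 neural stem cell genes, the median percentile was 20.8 to 30.0 in tumors, 21.9 to 37.9 in SubQ tissue, 26.6 to 48.8 in immortalized lines and 88.7 to 89.5 in NSCs.

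**Figure D1:**
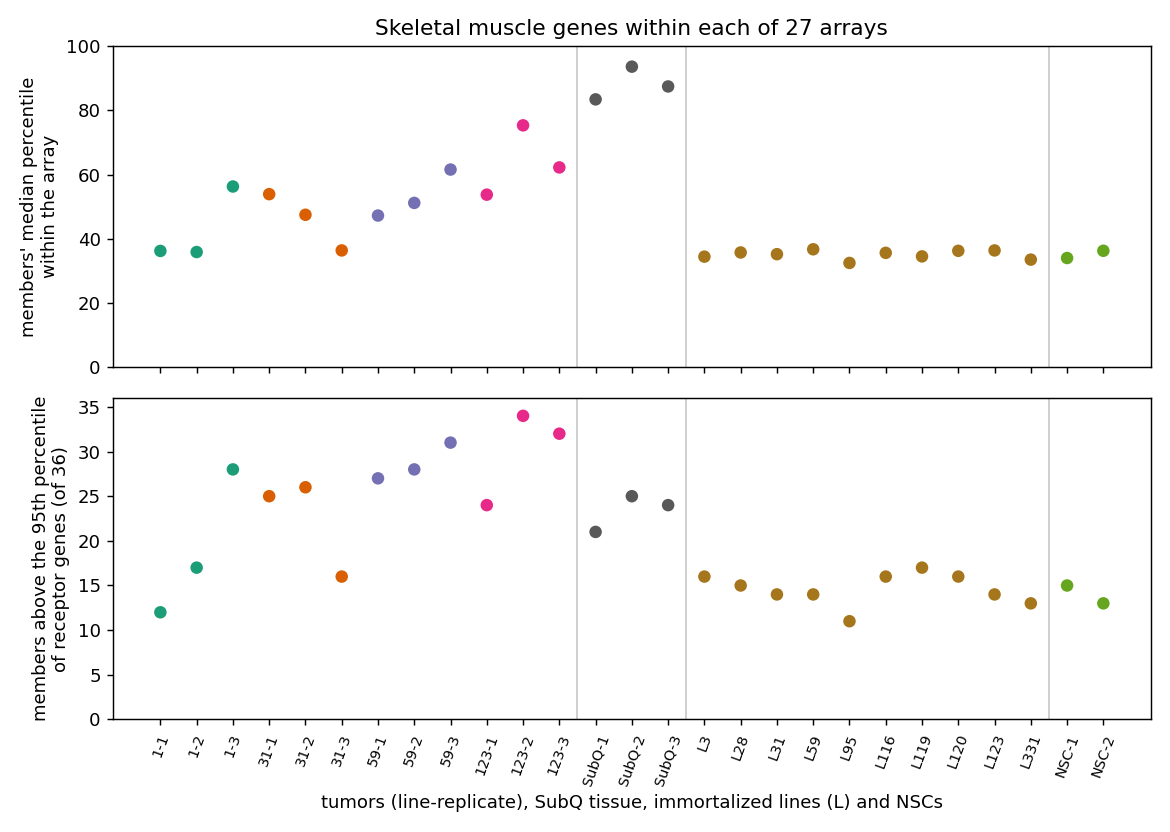
Each point is 1 array: tumors by line and replicate, then SubQ tissue, the immortalized lines (L) and the NSCs. The upper panel gives the members' median percentile within the array and the lower panel how many of the 36 members lie above the 95th percentile of that array's odorant and vomeronasal receptor genes. Tumors run from 35.9 to 75.3 in the upper panel, SubQ tissue from 83.4 to 93.6 and cultures from 32.5 to 36.8.

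The SubQ arrays differed from the tumor arrays over all genes, and this touches every difference between the groups. The SD over genes was 1.63 to 1.79 log2 units in tumors and 0.87 to 1.02 in SubQ tissue. Pairs of arrays correlated across genes at 0.936 to 0.985 among tumors and at 0.656 to 0.720 among SubQ pieces. The 1190 odorant and vomeronasal receptor genes, which act in sensory neurons and served as genes of low signal, had medians of 3.47 to 3.87 in tumors and 4.79 to 5.07 in SubQ tissue, and limma called 1132 of them lower in tumors (95.1%). Actb, cytoplasmic actin, averaged 12.26 ± 0.21 in tumors (SD, n = 12) and 8.90 ± 0.80 in SubQ tissue (SD, n = 3). Differences between tumors and SubQ tissue are therefore given on the deposited log2 values and also after each array was centred on the median of its receptor genes, a scaling added after the data were seen. That centring moved the median difference of all genes, tumors minus SubQ tissue, to 1.01, against -0.28 as deposited.

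Most skeletal muscle genes were lower in tumors than in SubQ tissue on the deposited values. By limma with Benjamini-Hochberg adjustment over all genes, 26 of the 36 members were lower in tumors (72.2%), against 45.8% of all genes. Only Tnnc1 was higher (2.78% of members, against 30.7% of all genes). The members' median difference was -0.99. With at least a 2-fold change also required, 16 members were lower (44.4%, against 21.6% of all genes). All 12 tumors lay below all 3 SubQ pieces in 8 members (22.2%, against 30.6% of all genes): Trdn, Ryr1, Jph1, Neb, Actn3, Myot, Ckm and Ppp1r3a. After each array's values were turned into ranks, 25 members were lower and 1 higher, against 32.1% and 26.6% of all genes. After centring on the receptor genes, 2 members were lower, Trdn and Ppp1r3a (5.56%, against 3.74% of all genes), and 9 were higher (25.0%, against 73.3% of all genes), with a median difference of 0.30. Without SubQ piece 1, 2 or 3, 25, 19 and 21 members were lower on the deposited values.

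**Figure D2:**
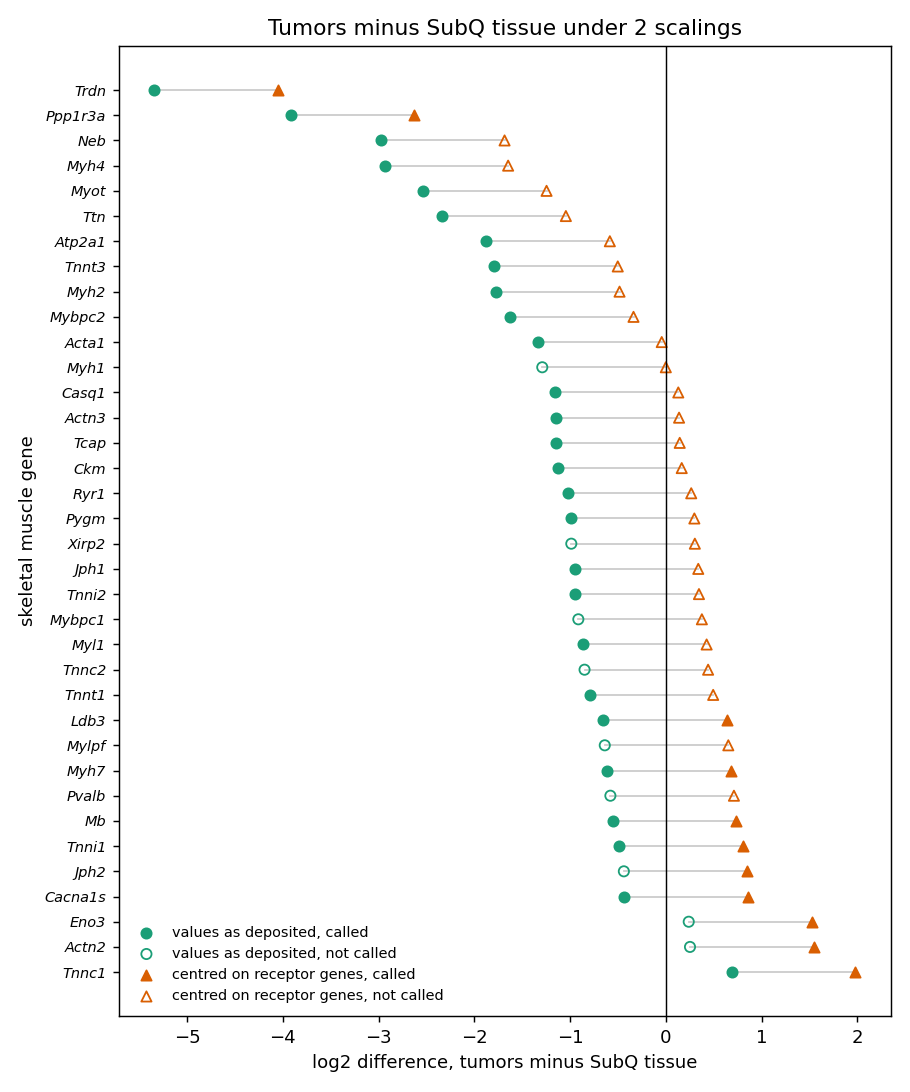
Each row is 1 of the 36 members, and the x axis gives the log2 difference, tumors minus SubQ tissue (n = 12 and 3). Green circles are the deposited values and orange triangles the values centred on the receptor genes; filled symbols were called at an adjusted p under 0.05 by limma. On the deposited values 26 members were called lower, and after centring 2, Trdn and Ppp1r3a, in the top rows.

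Of the 8 genes of calcium release, 6 were lower in tumors (75.0%, against 45.8% of all genes) and none higher (30.7% of all genes). Trdn encodes triadin, which anchors calsequestrin to the calcium release channel. It measured 5.70 at the lowest, 6.97 at the median and 8.26 at the highest in the 12 tumors, against 12.10, 12.43 and 12.39 in SubQ tissue. In each SubQ piece Trdn stood at percentile 99.99 of all genes, above every other member. The reason for so high a level was not tested. Every tumor lay more than 3 log2 units below every SubQ piece. The difference was -5.34 ± 0.42 (SE; limma adjusted p = 9.9e-09), and -4.05 after centring on the receptor genes. Trdn had 19 probe sets listed with it alone, and in each of the 19 all tumors lay below all SubQ pieces. Their differences ran from -7.00 to -1.67 with a median of -4.80.

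**Figure D3:**
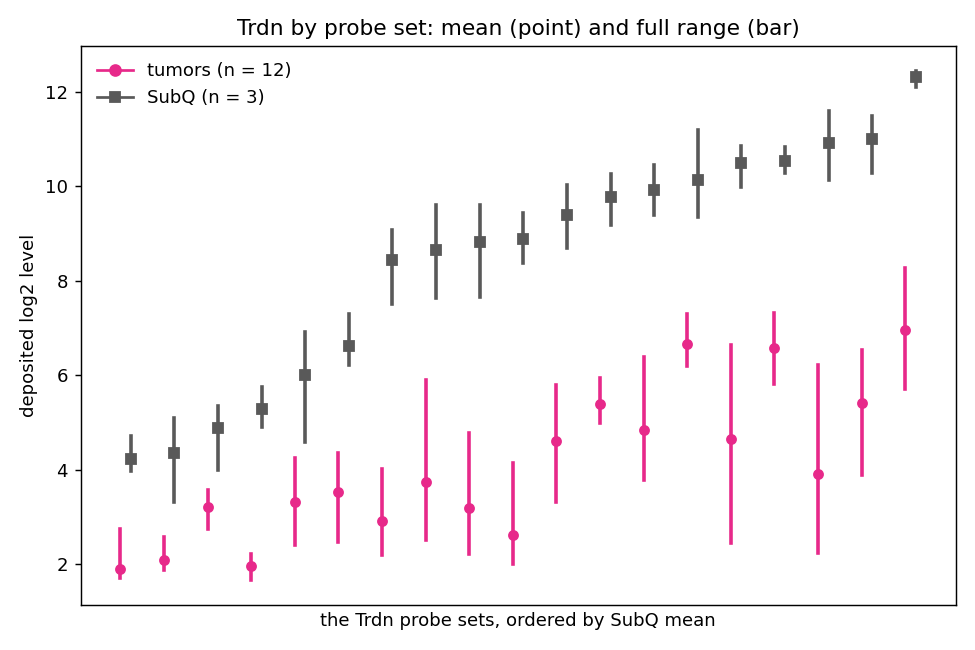
Each of the 19 probe sets of Trdn is drawn with the mean (point) and the full range (bar) of the deposited log2 level in tumors (n = 12, pink circles) and SubQ tissue (n = 3, grey squares), ordered from left to right by the SubQ mean. The bars of tumors and SubQ tissue overlap in none of the 19.

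Ryr1, the calcium release channel itself, averaged 5.18 ± 0.29 in tumors and 6.20 ± 0.16 in SubQ tissue (SD, n = 12 and 3), and the groups did not overlap. Its difference was -1.03 ± 0.18 (SE; limma adjusted p = 4.8e-05). Casq1, the calcium store protein calsequestrin, measured 4.60 to 7.04 in tumors and 6.21, 6.86 and 6.88 in SubQ tissue, a difference of -1.16 ± 0.35. Atp2a1, the calcium pump of fast fibres, measured 5.42 to 7.70 in tumors and 7.33, 8.38 and 8.60 in SubQ tissue, a difference of -1.88 ± 0.38. In both genes the tumor of line 123, replicate 2, was the one at the top and lay inside or above the SubQ range. Jph1, a junctophilin that ties the surface membrane to the calcium store, was lower by -0.95 ± 0.22, with all tumors below all SubQ pieces. Cacna1s, the voltage sensor, was lower by -0.44 ± 0.18 and was not called without SubQ piece 3 (-0.26). Jph2 (-0.44 ± 0.22) and Pvalb, the calcium buffer parvalbumin of fast fibres (-0.58 ± 0.37), did not pass the test. The other probe set of Jph2, not the one kept, had a difference of -1.12, with all tumors below all SubQ pieces. After centring on the receptor genes, Cacna1s (0.85) and Jph2 (0.85) were called higher in tumors, while Ryr1 (0.26), Casq1 (0.13), Jph1 (0.34), Atp2a1 (-0.59) and Pvalb (0.71) were not called.

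Of the 8 genes of the thick filament, 5 were lower in tumors (62.5%, against 45.8% of all genes) and none higher (30.7% of all genes). Myh4, the myosin heavy chain of the fastest fibres, measured 4.97, 6.08 and 9.14 at the lowest, median and highest tumor, against 7.62, 9.999 and 10.03 in SubQ tissue. Tumors 59-3 (line 59, replicate 3; 8.04) and 123-2 (line 123, replicate 2; 9.14) lay above the lowest SubQ piece and the other 10 below all of them. The difference was -2.94 ± 0.74 (SE; limma adjusted p = 0.0017), and -1.65 without a call (adjusted p = 0.053) after centring on the receptor genes. Myh2, the myosin of fast oxidative fibres, averaged 6.30 ± 0.73 in tumors and 8.08 ± 0.86 in SubQ tissue (difference -1.77 ± 0.43). Mybpc2, fast myosin-binding protein C, averaged 5.59 ± 0.65 in tumors and 7.21 ± 0.54 in SubQ tissue (difference -1.63 ± 0.37). Myh7, the myosin of slow fibres, averaged 5.11 ± 0.14 in tumors and 5.72 ± 0.34 in SubQ tissue, a difference of -0.61 ± 0.14. It was called higher in tumors after centring (0.68). Myl1, an essential light chain of fast fibres, was lower by -0.86 ± 0.27, and by -0.28 and not called without SubQ piece 2. Myh1 (-1.29 ± 0.60), Mylpf, the fast regulatory light chain (-0.64 ± 0.52), and Mybpc1, slow myosin-binding protein C (-0.91 ± 0.50), did not pass the test, and tumor 123-2 lay above all 3 SubQ pieces in each of these 3 genes. With arrays centred in this way, Myh2 (-0.48), Mybpc2 (-0.34), Myl1 (0.43), Mylpf (0.65) and Mybpc1 (0.38) had no call, nor had Myh1, whose difference was -0.0009.

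Of the 8 genes of the thin filament, 6 were lower in tumors (75.0%, against 45.8% of all genes) and 1 higher (12.5%, against 30.7%). Neb encodes nebulin, which runs along the actin filament. It measured 4.80, 7.25 and 9.33 at the lowest, median and highest tumor, against 9.75, 10.71 and 10.03 in SubQ tissue. All tumors lay below all SubQ pieces, the 2 highest, 59-3 and 123-2, by less than 0.5. The difference was -2.97 ± 0.75 (SE; limma adjusted p = 0.0018), and -1.68 (adjusted p = 0.052) after centring. Tnnt3, troponin T of fast fibres, measured 5.62, 7.96 and 10.01 at the lowest, median and highest tumor, against 9.09, 9.78 and 9.98 in SubQ tissue. Tumor 123-2 was above every SubQ piece, and tumors 59-3 and 123-3 were above the lowest. The difference of -1.79 ± 0.68 (SE; limma adjusted p = 0.023) was not called without SubQ piece 2 (-1.71) or 3 (-1.61), nor after centring (-0.50).

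Acta1, skeletal actin, averaged 7.12 ± 0.97 in tumors and 8.46 ± 0.28 in SubQ tissue (SD, n = 12 and 3). Its difference of -1.33 ± 0.51 (SE; limma adjusted p = 0.025) was not called when any of SubQ pieces 1, 2 and 3 was left out (-1.43, -1.17 and -1.40). Tnni2, fast troponin I, was lower by -0.94 ± 0.36 and lost its call without SubQ piece 2 (-0.64) or 3 (-0.81). The troponins of slow fibres Tnnt1 (-0.80 ± 0.23) and Tnni1 (-0.49 ± 0.21) were called as well. Without SubQ pieces 2 and 3, Tnnt1 gave -0.57 and -0.59 with no call, and without pieces 1 and 3 Tnni1 gave -0.25 and -0.29 with no call. Tnnc2, fast troponin C (-0.85 ± 0.52), did not pass the test. On the centred values Acta1 (-0.04), Tnni2 (0.35), Tnnt1 (0.49) and Tnnc2 (0.44) had no call, and Tnni1 was called higher in tumors (0.80). Tnnc1, the troponin C of slow fibres and heart, went the other way: it averaged 5.91 ± 0.40 in tumors and 5.22 ± 0.17 in SubQ tissue, a difference of 0.69 ± 0.23 (SE; limma adjusted p = 0.011). In Tnnc1 11 of the 12 tumors, all but 31-1 at 5.09, lay above the highest SubQ piece at 5.38, and without SubQ piece 2 the difference of 0.60 was not called. After centring it was 1.98 and called.

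Of the 7 genes of titin, Z-disc and scaffold, 5 were lower in tumors (71.4%) and none higher, against 45.8% and 30.7% of all genes. Ttn encodes titin, the molecular spring that spans from Z-disc to the middle of the sarcomere. It measured 4.88, 7.44 and 9.62 at the lowest, median and highest tumor, against 8.996, 10.18 and 9.77 in SubQ tissue. Tumors 59-3 (9.38) and 123-2 (9.62) lay above the lowest SubQ piece and the other 10 below all of them. The difference was -2.33 ± 0.77 (SE; limma adjusted p = 0.011), it was not called without SubQ piece 2 (-2.07), and it was -1.04 with no call after centring. Myot, the Z-disc protein myotilin, averaged 6.18 ± 1.35 in tumors and 8.71 ± 0.50 in SubQ tissue, with no overlap and a difference of -2.54 ± 0.71. Actn3, the alpha-actinin of fast fibres (-1.15 ± 0.20), and Tcap, the titin cap (-1.15 ± 0.21), were lower with SDs among tumors of 0.22 and 0.24. Ldb3, which binds alpha-actinin, was lower by -0.65 ± 0.15 and called higher by 0.64 after centring. Xirp2, a scaffold of the muscle ends (-0.99 ± 0.73), and Actn2, the alpha-actinin of all fibres (0.25 ± 0.35), did not pass the test. Once centred, Myot (-1.25), Actn3 (0.14), Tcap (0.14) and Xirp2 (0.30) had no call, and Actn2 was called higher in tumors (1.54).

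Of the 5 genes of energy and oxygen, 4 were lower in tumors (80.0%) and none higher, against 45.8% and 30.7% of all genes. Ppp1r3a brings a phosphatase to glycogen in muscle. It measured 3.66, 4.13 and 5.87 at the lowest, median and highest tumor, against 7.74, 9.27 and 7.72 in SubQ tissue. No tumor came within 1.5 of a SubQ piece. The difference was -3.92 ± 0.42 (SE; limma adjusted p = 2.8e-07), and -2.63 (adjusted p = 1.2e-05) after centring on the receptor genes. Ckm, the muscle creatine kinase, measured 5.84, 6.09 and 6.67 at the lowest, median and highest tumor, against 6.82, 7.39 and 7.54 in SubQ tissue. The groups did not overlap, and the difference was -1.12 ± 0.16 (SE; limma adjusted p = 8.7e-06), but 0.17 with no call after centring. Pygm, muscle glycogen phosphorylase, was lower by -0.99 ± 0.24. Mb, the oxygen store myoglobin, was lower by -0.56 ± 0.20 and lost its call without SubQ piece 1 (-0.36) or 2 (-0.50). Eno3, the enolase of muscle, was 7.21 ± 1.19 in tumors and 6.97 ± 0.30 in SubQ tissue, and its difference of 0.24 ± 0.62 did not pass the test. After centring, Pygm (0.30) had no call, and Mb (0.73) and Eno3 (1.53) were called higher in tumors.

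The 3 SubQ pieces themselves differed in the levels of the members. Piece 1 had the lowest value of the 3 in 23 members and the highest in 7. Piece 2 had the highest in 17 and the lowest in 8, and piece 3 the highest in 12 and the lowest in 5. No share of all genes was taken beside these counts. Piece 1 was also lowest in Actb (8.35, against 8.53 and 9.83) and in the epidermal mean (7.16, against 7.82 and 8.31). In the fat cell mean it was not (7.21, against 7.01 and 7.41). The part of whole-array differences in the members' levels was not tested. Myh4 showed the gap most plainly, at 7.62 in piece 1 and 9.999 and 10.03 in pieces 2 and 3. Myl1 stood at 6.56 in piece 2 and at 4.54 and 5.08 in pieces 1 and 3.

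The members, which were chosen with earlier results of these data known, varied more between single tumors than most genes did. The range over the 12 tumors, highest minus lowest, had a median of 2.23 log2 units among the members, against 0.81 among all genes. It exceeded 2 in 19 members (52.8%, against 5.52% of all genes). In 55 muscle genes outside the members the median range was 0.82, and 4 of the 55 exceeded 2. The widest ranges were those of Ttn (4.74), Neb (4.53), Tnnt3 (4.39), Myh4 (4.17), Myot (4.10), Xirp2 (4.08), Myh1 (4.07) and Eno3 (3.98). The narrowest were those of Tnni1 (0.45), Myh7 (0.49) and Ldb3 (0.60). At the threshold of 2, Ppp1r3a lay just inside with 2.21 and Actn2 just outside with 1.84. Without tumor 123-2 the range exceeded 2 in 12 members. After centring on the receptor genes, which shifts whole arrays and so can change the range of any gene, it did so in 21. The 5.52% of all genes holds for the deposited values of all 12 tumors. Shares of all genes under these other settings are not given here.

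**Figure D4:**
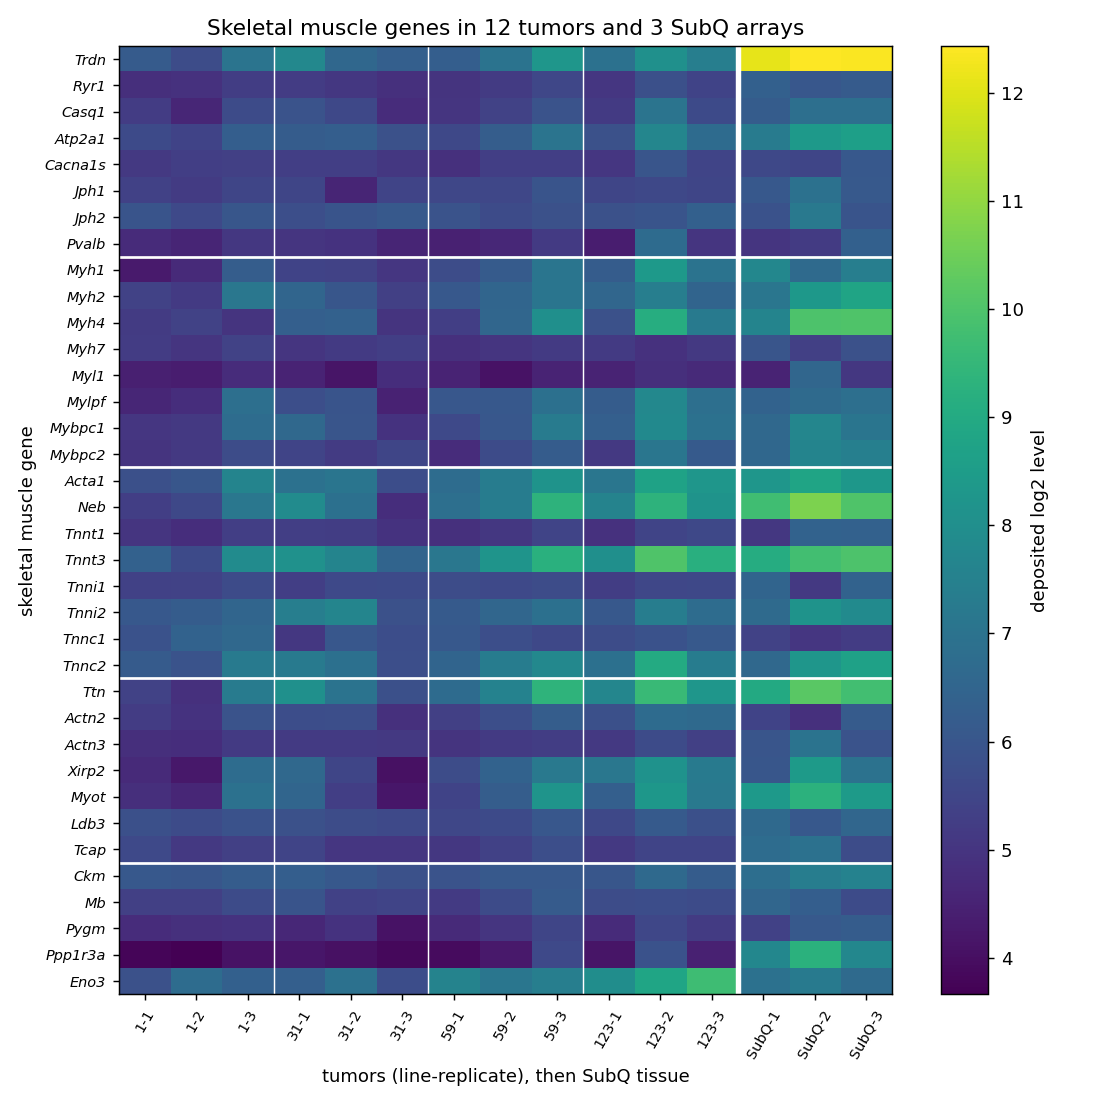
Each row is 1 of the 36 members, grouped by function, and each column 1 array: 12 tumors by line and replicate, then the 3 SubQ pieces. Colour is the deposited log2 level. The columns of tumors 123-2, 59-3 and 123-3 are brighter than those of 1-1, 1-2 and 31-3 across many rows, with member means of 7.06, 6.62 and 6.45 against 5.29, 5.22 and 5.22.

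A few tumors stood at the top or at the bottom for many members. Tumor 123-2 had the highest value of the 12 in 24 members (6.97% of all genes), 59-3 in 5 (8.26%) and 123-3 in 3 (7.15%). Tumor 31-3 had the lowest value in 13 members (11.3% of all genes) and 1-2 in 10 (9.85%). None of 123-2, 59-3, 123-3 and 1-3 was lowest in any member. The mean log2 level over the 36 members was 5.29, 5.22 and 6.07 in the tumors of line 1, 6.01, 5.79 and 5.22 in those of line 31, 5.60, 5.96 and 6.62 in those of line 59, and 5.91, 7.06 and 6.45 in those of line 123, in the order of replicates 1 to 3. Within a line, the highest and lowest tumor differed in this mean by 0.86 in line 1, 0.79 in line 31, 1.02 in line 59 and 1.15 in line 123. The number of members above the 95th percentile of the array's receptor genes ran from 12 in tumor 1-1 to 34 in 123-2, against 21, 25 and 24 in SubQ tissue and 11 to 17 in the immortalized lines.

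By fibre type, a grouping made from textbook knowledge after the values were seen, 12 members belong to fast fibres (Myh1, Myh2, Myh4, Mylpf, Myl1, Mybpc2, Tnnt3, Tnni2, Tnnc2, Actn3, Atp2a1 and Pvalb) and 5 to slow fibres (Myh7, Mybpc1, Tnnt1, Tnni1 and Tnnc1). The range over tumors was 0.73 to 4.39 in the fast-fibre genes, with a median of 2.35, and 9 of 12 exceeded 2 (5.52% of all genes). In the slow-fibre genes it was 0.45 to 2.90, with a median of 0.76, and 1 of 5, Mybpc1, exceeded 2. Tumor 123-2 was highest in 11 of the 12 fast-fibre genes and 1 of the 5 slow-fibre genes (6.97% of all genes). Several of these genes lay near the low-signal level in tumors, where the 95th percentile of the receptor genes was 4.99 to 5.44. Among them were the slow-fibre genes Myh7 (4.89 to 5.38), Tnnt1 (4.80 to 5.56) and Tnni1 (5.26 to 5.71). The fast-fibre genes Actn3 and Myl1, also near that level, had narrow ranges too (0.83 and 0.73). The part of low signal in these ranges was not tested. No test was made of this contrast.

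Apart from Eno3, differences between the 4 tumor lines did not exceed the spread between tumors of 1 line by the test. Ttn measured 5.41, 4.88 and 7.33 in tumors of line 1, 8.08, 7.01 and 5.82 in those of line 31, 6.73, 7.55 and 9.38 in those of line 59, and 7.69, 9.62 and 8.27 in those of line 123. Each line overlapped the next, and the moderated F test of limma gave an adjusted p of 0.184. Neb (adjusted p = 0.223), Tnnt3 (0.147) and Myh1 (0.0995) likewise missed the threshold by limma. Of the 36 members, 1 passed, Eno3 (2.78%, against 5.07% of all genes), and 8 had an unadjusted p under 0.05 (22.2%, against 20.7% of all genes). The line mean was highest in line 123 for 30 members (83.3%, against 19.6% of all genes) and lowest in line 1 for 22 (61.1%, against 23.9%). These counts rest on genes that moved together in the same 12 tumors, and without a test they are a description.

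**Figure D5:**
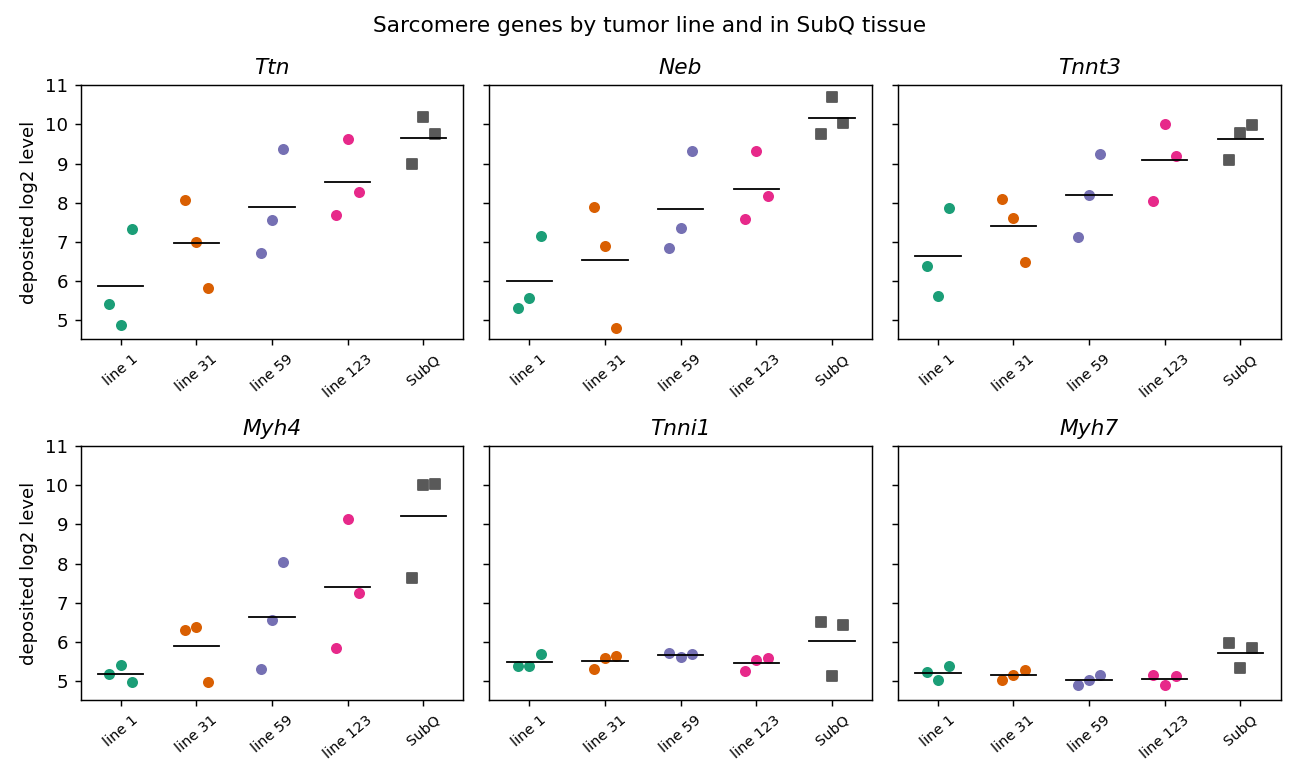
Deposited log2 levels of Ttn, Neb, Tnnt3, Myh4, Tnni1 and Myh7 are drawn for each tumor by line (circles, n = 3 per line) and each SubQ piece (squares, n = 3), with black bars at the means. Tumors of 1 line are spread over up to 3.29 log2 units in the first 4 genes and lie close together in Tnni1 and Myh7.

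Eno3 was the member that differed between tumor lines. It measured 5.85, 6.76 and 6.34 in tumors of line 1, 6.30, 6.93 and 5.74 in those of line 31, 7.58, 7.096 and 7.41 in those of line 59, and 7.95, 8.80 and 9.72 in those of line 123. All 3 tumors of line 123 lay above the other 9, and the limma F test gave an adjusted p of 0.0078. Line 123 stood 2.16 ± 0.33 above the mean of the other lines (SE; limma adjusted p = 0.0093; 0.627% of all genes were called higher in this line). The culture of line 123 also had the highest Eno3 of the 10 immortalized lines, at 10.68, with the nearest line at 9.13. The part of the tumor cells themselves in the Eno3 level of these tumors was not tested.

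In culture 2 members, Eno3 and Pygm, differed between immortalized lines and NSCs. The members' median difference, immortalized lines minus NSCs, was 0.02. By limma 1 member was higher (6.79% of all genes were) and 1 lower (8.22%), and 3 had an unadjusted p under 0.05 (8.33%, against 26.3% of all genes). Eno3 averaged 8.80 ± 0.72 in immortalized lines (SD, n = 10) and measured 6.99 and 7.19 in NSCs. Its difference was 1.71 ± 0.48 (SE; limma adjusted p = 0.027) and was not called without NSC culture 1 (1.61) or 2 (1.81). Pygm averaged 6.20 ± 0.18 in immortalized lines (SD, n = 10) and measured 7.67 and 7.74 in NSCs. All 10 lines lay below both NSCs, with a difference of -1.50 ± 0.13 (SE; limma adjusted p = 3.3e-06). Ttn measured 6.03, 6.28 and 6.38 at the lowest, median and highest line, and 6.29 and 6.44 in the NSCs.

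Tumors were set beside the culture of their own line by percentile alone, since culture arrays had medians over all genes of 7.18 to 7.28 against 5.66 to 5.75 in tumors and 5.82 to 5.87 in SubQ tissue, and no test was made. All 3 tumors lay above their culture in 14 of 36 members for line 31 (28.4% of all genes), 25 for line 59 (29.6%) and 23 for line 123 (30.6%). Ttn stood at percentiles 89.6, 76.2 and 54.5 in the tumors of line 31, against 28.5 in their culture. It stood at 69.7, 83.6 and 97.3 in the tumors of line 59, against 28.4, and at 85.1, 98.0 and 90.6 in those of line 123, against 28.1. All 9 tumors were above their own culture in Actn3, Mybpc1, Myh1, Myh4, Myl1, Ppp1r3a, Tcap, Tnnc2, Tnnt1, Tnnt3 and Ttn. The share of all genes for which this held was not taken. Some of these members were dim. Myl1, at 4.10 to 4.84, lay below the 95th percentile of the receptor genes (4.99 to 5.44) in every tumor. In line 31 Actn3 stood at 34.6, 34.6 and 34.4, against 29.3 in culture, and Ppp1r3a at 14.3, 13.8 and 8.9, against 5.4. In Jph1 none of the 9 was above its culture, in Jph2 1, in Myh7 2, and in Ckm and Ldb3 3 each.

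Other muscle genes moved in the same direction on the deposited values. Of 55 genes of sarcomere, calcium handling and muscle energy outside the 36, 43 were lower in tumors than in SubQ tissue (78.2%, against 45.8% of all genes) and 1, Phka1, was higher (1.82%, against 30.7%), with a median difference of -0.81. By group, 21 of 26 sarcomere and Z-disc genes, 12 of 16 genes of calcium and membrane excitation and 10 of 13 muscle energy genes were lower. Of the receptor genes, which served as genes of low signal, 95.1% were lower as well. Lmod3, which starts actin filaments in muscle, averaged 4.66 ± 0.27 in tumors and 6.82 ± 0.42 in SubQ tissue, a difference of -2.16 ± 0.19 (SE; limma adjusted p = 3.4e-08), and it was still called after centring (-0.87). Cmya5 (-2.08), the muscle AMP deaminase Ampd1 (-1.98), the cytochrome oxidase subunit Cox8b (-1.77) and the acetylcholine receptor subunit Chrnd (-1.08) were lower too. After centring on the receptor genes 2 of the 55, Lmod3 and Ampd1 (-0.69), were lower (3.64%, against 3.74% of all genes) and 27 were higher (49.1%, against 73.3%). Over the 12 tumors, the range of the 55 genes had a median of 0.82, against 0.81 among all genes. It exceeded 2 in 4 of the 55, against 5.52% of all genes: Klhl41 (3.58), Pdlim3 (2.98), Chrna1 (2.66) and Cmya5 (2.29). Tumor 123-2 was highest in 23 of the 55 (6.97% of all genes), among them Klhl41, Pdlim3 and Cmya5. Chrna1, a subunit of the acetylcholine receptor at the nerve-muscle junction, was highest in 1-2 at 7.12.

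Among genes of muscle precursors and of other muscle types, the share called lower ran from 33.3% to all genes of a list, against 45.8% of all genes measured. Of 12 myogenic regulators and satellite cell genes 8 were lower in tumors (66.7%), among them Cdh15 (-1.17), Myog (-1.14), Pax7 (-1.10) and Des (-1.001). Of 6 embryonic and perinatal muscle genes 2 were lower (33.3%), Myh3 (-0.87) and Chrng (-0.84). All 8 heart genes were lower, among them Nppa by -1.66 and Myh6 by -1.34. Of 8 smooth muscle genes 3 were lower (37.5%) and 1, Acta2, was higher (12.5%, against 30.7% of all genes). Acta2 was higher by 4.37 ± 0.57 (SE; limma adjusted p = 2.8e-06). In culture Acta2 averaged 12.72 ± 0.30 in the immortalized lines (SD, n = 10) and 7.16 in NSCs. After centring on the receptor genes none of these 4 lists had a gene called lower, and 7 of 12, 6 of 6, 5 of 8 and 7 of 8 of their genes were called higher, against 73.3% of all genes.

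Markers of other cell types varied between the tumors as well. The fibroblast genes are not markers of host cells alone, since some cultures of immortalized lines, without host tissue, also showed them. Their median percentile was 30.9 to 93.3 in those cultures and 88.0 to 96.6 in tumors. The part of the tumor cells in the level of these genes was not tested. All 9 fat cell genes were lower in tumors than in SubQ tissue, among them Fabp4 (-2.91) and Adipoq (-2.20). So were 6 of 9 epidermal genes (66.7%), among them Flg2 (-3.78), Spink5 (-3.66) and Krtdap (-3.65). Of all genes, 45.8% were lower. Higher were 7 of 8 macrophage genes (87.5%), among them Lyz2 (5.26) and Cd68 (2.83). So were 5 of 7 fibroblast genes (71.4%), among them Pdgfra (2.21) and Col1a2 (1.93). Of the endothelial genes, 3 of 7 were higher (42.9%, against 30.7% of all genes), among them Emcn (2.18). On the centred values 2 fat cell genes were lower and 2 higher, and 4 epidermal genes were lower and none higher. All macrophage, fibroblast and endothelial genes of these lists were higher. Of all genes, 3.74% were lower and 73.3% higher on the centred values. The summed epidermal list, as a mean of log2 values, was 4.71 to 7.22 in tumors and 7.16 to 8.31 in SubQ tissue. In the order of replicates 1 to 3 it was 5.11, 4.84 and 4.89 in the tumors of line 1, 6.24, 5.79 and 5.04 in those of line 31, 4.91, 4.71 and 7.22 in those of line 59, and 6.49, 6.35 and 7.16 in those of line 123. Epidermal and muscle means were both low in 1-1, 1-2 and 31-3 and both high in 59-3 and 123-3, while 1-3 and 59-2 had muscle means of 6.07 and 5.96 with epidermal means of 4.89 and 4.71. Tumor 123-2, with the highest muscle mean, had the fourth highest epidermal mean. All 9 epidermal genes had their highest line mean in line 123 (19.6% of all genes). The fat cell list was 5.11 to 6.94 in tumors and 7.01 to 7.41 in SubQ tissue, with 1-1 the highest tumor. Tumor 123-2 was highest in 0 of the 9 epidermal genes, 1 of 9 fat cell genes and 2 of 7 fibroblast genes. It was highest in 0 of 8 macrophage genes and 0 of 7 endothelial genes, against 6.97% of all genes. Whether tumors with more muscle signal held more of the surrounding skin was not tested.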

How the data were processed

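RNA was measured on Affymetrix arrays; per the labels' protocols, each labelling with biotin started from 100 ng of Trizol-extracted RNA. The authors deposited 1 log2 level for each probe set. RMA is named in the submitters' processing notes, which also list GCOS and Affymetrix Expression Console without versions or roles. The values were used as deposited. Arrays give no read depth, and their number limits the precision.

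Of 34760 probe sets, 21640 were listed with 1 gene, 1321 with several and 11799 with none. Of the 954 genes with several probe sets the one with the highest mean over 27 arrays was kept, which gave 19937 genes. Levels were not compared between genes, since probe sets differ in brightness. Groups were taken from the labels. limma 3.58.1 in R 4.3.3 (linear model per gene, eBayes, 2-sided) compared tumors with SubQ tissue, immortalized lines with NSCs and the 4 tumor lines by a moderated F test; p-values had the Benjamini-Hochberg adjustment over the 19937 genes, with calls under 0.05. Other steps ran in Python 3.11.15 (pandas 2.3.3, numpy 2.4.6, matplotlib 3.10.9). The fits were tested on simulated data: changes of 1 log2 unit were found for 75% of changed genes between tumors and SubQ tissue, 89% between immortalized lines and NSCs and 67% among tumor lines, with 8 false calls of 180, 8 of 194 and 6 of 172. The simulation had 1 spread per gene for all groups.

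The members and all lists were chosen with earlier results of these data known. All members are named; each other list could give up to 4 genes by size of called change between tumors and SubQ tissue, up to 2 called among tumor lines and all called between immortalized lines and NSCs, besides Actb. Not every list was used to its full number. Klhl41, Pdlim3, Chrna1, Phka1 and the receptor genes were picked with their values in view. Alternatives were other probe set rules, a filter on dim genes, other eBayes settings, array scalings, blocks, sample sets and a left-out replicate. Replicate numbers of the titles did not pair the samples: deviations of same-numbered tumors of different lines correlated at -0.282 to 0.335 (18 pairs), and those of different numbers at -0.406 to 0.305. Promoter windows came from RefSeq on GRCm38.p6.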

Additional observations from a re-analysis of the deposited data

Results flagged for a closer look

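Of the 36 members tested in the 10 immortalized lines, 3 had a line far from the other 9 by Dixon's criterion at 95% confidence, which chance meets in about 1 in 20 groups. Eno3 was highest in line 123 at 10.68, with the nearest line at 9.13. Tnnt3 was highest in line 119 at 7.92, with the nearest line at 7.64. Ttn was lowest in line 331 at 6.03, with the nearest line at 6.21. Each line had 1 array, so no repeat measurement bears on these values.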

How the results depend on the processing

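The count of members lower in tumors than in SubQ tissue (26) was 13 with genes above the median only, where 20 members were tested, 2 with arrays centred on the receptor genes, 16 with a 2-fold change required, and 19 to 29 when 1 array was left out, with 19 without SubQ piece 2. The count higher in tumors (1) was 0 with the filter, 9 with receptor centring, 0 with a 2-fold change and 0 to 1 with 1 array left out. The other scalings, array sets and blocks gave 22 to 29 lower and 1 higher. Receptor centring turned 21 members from a negative to a positive difference; 5 of them (Pvalb, Mylpf, Mybpc1, Tnnc2 and Xirp2) were called under neither scaling, and the other 16 were Actn3 0.14, Cacna1s 0.85, Casq1 0.13, Ckm 0.17, Jph1 0.34, Jph2 0.85, Ldb3 0.64, Mb 0.73, Myh7 0.68, Myl1 0.43, Pygm 0.30, Ryr1 0.26, Tcap 0.14, Tnni1 0.80, Tnni2 0.35 and Tnnt1 0.49. The cause was not tested.

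Among tumor lines the count (1) was 2 with the mean of all probe sets, which added Jph1, and 1 in each other setting and with any 1 array left out. Between immortalized lines and NSCs the count higher (1) was 0 with all 27 arrays in 1 fit and 0 to 1 with 1 array left out, where a lone NSC was assumed to vary like the lines; the count lower (1) was 0 with the filter, which drops Pygm. The tumors above the lowest SubQ piece numbered 1 by mean log2 and 0 by median percentile. The number of members above the 95th percentile of the receptor genes gave another order, with 21, 25 and 24 in SubQ tissue. Tumors 1-3 (28), 31-2 (26), 59-1 (27), 59-2 (28), 59-3 (31), 123-2 (34) and 123-3 (32) lay above all SubQ pieces. Tumors 31-1 (25) and 123-1 (24) lay above the lowest, and 1-1 (12), 1-2 (17) and 31-3 (16) below all. The range over tumors exceeded 2 in 19 members, in 12 to 19 with 1 tumor left out and in 21 after receptor centring. Shares of all genes with a tumor left out or after centring are not given here. With the replicate number as a block, 26 members were lower and 1 higher in tumors, 1 passed among lines and 1 was higher and 1 lower against NSCs, so this block changed no call. The 3 SubQ pieces and 2 NSCs limit what these tests can show.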

Other observations

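Of the other muscle genes, Chrnb1 and Tpm2 differed between tumor lines. Chrnb1, a subunit of the acetylcholine receptor, averaged 5.57 ± 0.09 in tumors of line 1, 5.76 ± 0.32 in line 31, 6.62 ± 0.48 in line 59 and 6.66 ± 0.24 in line 123 (SD, n = 3 each; limma F test, adjusted p = 0.022). Tpm2, a tropomyosin of muscle and of non-muscle cells, averaged 8.81 ± 0.27, 8.51 ± 0.42, 8.93 ± 0.19 and 9.65 ± 0.29 in the same order (limma F test, adjusted p = 0.040).

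Tpm2 was also higher in the immortalized lines, at 10.67 ± 0.61 (SD, n = 10), than in the NSCs, at a mean of 7.33, a difference of 3.34 ± 0.40 (SE; limma adjusted p = 6.3e-05). Six4, a regulator of muscle precursor genes, was higher by 0.98 ± 0.18 (limma adjusted p = 0.0023). Srl, a calcium-binding protein of the sarcoplasmic reticulum, was lower by -0.68 ± 0.16, and the cytochrome oxidase subunits Cox7a1 and Cox8b were lower by -0.48 ± 0.13 and -0.41 ± 0.11 (limma adjusted p between 0.012 and 0.020).

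Among the lists of other cells, limma also called Acta2 (5.56), Tagln (2.60), Col1a2 (3.14), Col1a1 (1.73), Csf1r (0.30), Hprt (0.69), Rplp0 (0.45) and Actb (0.43) higher in immortalized lines than in NSCs, by the log2 differences given, on the deposited values. The neural stem cell genes Fabp7 (-6.88), Olig2 (-3.66), Prom1 (-1.95) and Msi1 (-1.14) were lower, as were Car3 (-2.52) and S100b (-0.39). The adjusted p-values of these 14 genes were at most 0.040 by limma.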
